A study of Mus musculus with 8 samples.

Results

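The axoneme, the microtubule core of motile cilia and of the sperm tail, was represented by 44 listed genes of axonemal dynein arms, dynein assembly, radial spokes, the central pair and tektins. Members were the genes of the deposited table with these symbols, and 42 of 44 were found among 57690 genes. The symbols Dnai1 and Dnai2 matched no gene. A mean of at least 1 TPM was reached by 39 members, which were tested, while Dnah5, Dnah11 and Rsph4a stayed below it.

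Dynein arms are motors fixed in rows along the outer microtubules of the axoneme, and they make a tail bend by sliding neighbouring doublets past each other. The heavy chains carry the motor, assembly factors fold the arms in the cytoplasm before they enter the tail, docking proteins hold them in place, and radial spokes and the central pair regulate their action. In the testis these transcripts belong mainly to meiotic and haploid germ cells, which build the sperm tail. Several parts have separate genes for cilia and for sperm.

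Bulk RNA was sequenced from testes of C57BL/6 mice of 8 weeks, with no genetic change named in the labels. Of 8 libraries, 4 came from mice given 2 intraperitoneal injections of 200 µg of an antibody against PD-L1, the ligand of the inhibitory receptor PD-1 of T cells, and 4 from mice given the same of an IgG2b isotype control. Testes were taken 7 days after treatment. The series asks what the antibody did to testis transcripts. Whether the 4 libraries per group stem from different animals is not stated in the labels, so p-values reflect the spread among these samples alone, which may be technical. Levels are in TPM, a share of the library per gene length that sums to 1000000 and keeps no depth, so read depth is unknown. Levels by library are given in the order of replicates 1 to 4.

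The libraries held the markers of testis. Meiotic markers summed to between 4167 and 4570 TPM. Elongating spermatid markers summed to between 61199 and 76738 TPM after IgG and between 58474 and 66424 TPM after anti-PD-L1, which overlapped. All 9 elongating spermatid genes were lower on average after anti-PD-L1, with a median log2 difference of -0.13, where 58.3% of all genes were higher. Of these 9 genes, 2 had an unadjusted p under 0.05 and 0 an adjusted p under 0.05 (limma). Leydig cell markers summed to between 1150 and 1493 TPM after IgG and between 2068 and 3378 TPM after anti-PD-L1. Insl3 carried that difference, at 752 to 998 TPM and 1610 to 3028 TPM, while the other 5 Leydig markers summed to between 398 and 498 TPM and between 349 and 573 TPM. Of the 6 Leydig markers 0 had an adjusted p under 0.05 (limma), and groups did not overlap for 2.99% of all genes. Markers of multiciliated cells, which line airways and efferent ducts, summed to between 575 and 626 TPM after IgG and between 591 and 654 TPM after anti-PD-L1. Of those 12 genes, 5 were below 1 TPM, namely Mcidas, Gmnc, Myb, Sntn and Tmem212. The other 7 reached it, with Fam183b, Deup1 and Cdhr4 at means of 214, 175 and 173 TPM, Foxj1 at 35.4 TPM and Ccno at 2.36 TPM among them. In the list of efferent duct and epididymis 9 of 11 genes were below 1 TPM, and Lcn5, Lcn8 and Ovch2 were listed at 0 in all libraries. Above it were Cst8, at 379 to 444 TPM, and Rnase10, at 3.22 to 4.18 TPM. IgG replicate 4 and anti-PD-L1 replicate 1 stood apart, with mean deviations over all tested genes of 0.13 and 0.11 on the log2 scale against -0.06 to -0.005 in the other libraries. The part of these differences in the values below was not tested. In bulk RNA, fewer cells of a type and less RNA per cell cannot be told apart.

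Promoter sequence was examined first, because RFX factors bind a paired site, the X-box, ahead of many axoneme genes. RefSeq promoters of GRCm38.p6, from 250 bases before to 50 after the start, were found for 37 of the 42 members. The X-box was searched on both strands by its consensus, and it was held by 7 of 37 members (18.9%), namely Ccdc103, Ccdc151, Cfap44, Dnaaf2, Hydin, Spag16 and Tekt2. Among all 27025 genes with a promoter its share was 1.75%, and among the 12605 of them that were tested it was 2.45%. GTTGCC, the core of an X-box arm, was searched on both strands, may lie within an X-box, and was held by 14 of 37 members (37.8%) against 14.1% of all genes and 16.3% of tested genes. Among 64 related axoneme genes that are not members, the X-box was held by 17.2% and GTTGCC by 54.7%. By role, GTTGCC was held by 3 of 4 assembly factors, 3 of 5 tektins, 3 of 7 inner arm heavy chains and 2 of 3 central pair genes. None of 4 outer arm heavy chains, 2 light chains, 2 docking genes and 3 spoke genes held it. CAACTG, the core bound by MYB factors such as the meiotic regulator MYBL1, was held by 32.4% of members and 15.4% of all genes, against 14.2% of tested genes and 26.6% of the related axoneme genes. TGACG, part of the CREM site, was held by 8.11% of members and 23.0% of all genes, against 31.7% of tested genes and 31.2% of the related axoneme genes. A match describes the letters only, and no match says no more than that these letters are not in the window.

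The stretches below are shown because 4 of them hold an X-box (Dnaaf2, Spag16, Cfap44 and Tekt2), the fifth holds 2 GTTGCC sites without one (Tekt1), and the last belongs to the cilium gene Dnah5 and holds neither. Capitals mark GTTGCC or its complement GGCAAC, each sequence runs 5′ to 3′ on the strand of its gene, and bases in coding gene exons were left off. They lie at chr12:69198430-69198679 on the minus strand (Dnaaf2), chr1:69826720-69826969 on the plus strand (Spag16), chr16:44394549-44394795 on the plus strand (Cfap44), chr4:126325689-126325896 on the minus strand (Tekt2), chr11:72361883-72362132 on the minus strand (Tekt1) and chr15:28203516-28203751 on the plus strand (Dnah5).
Dnaaf2: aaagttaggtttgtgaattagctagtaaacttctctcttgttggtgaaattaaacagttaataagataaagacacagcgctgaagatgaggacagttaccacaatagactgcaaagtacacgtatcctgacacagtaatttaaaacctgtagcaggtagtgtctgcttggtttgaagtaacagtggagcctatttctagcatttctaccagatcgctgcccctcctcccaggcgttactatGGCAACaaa
Spag16: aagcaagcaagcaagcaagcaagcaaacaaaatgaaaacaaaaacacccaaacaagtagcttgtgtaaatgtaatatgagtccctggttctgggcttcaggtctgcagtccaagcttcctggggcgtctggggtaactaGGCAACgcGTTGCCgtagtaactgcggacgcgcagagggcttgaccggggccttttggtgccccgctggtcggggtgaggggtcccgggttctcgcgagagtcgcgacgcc
Cfap44: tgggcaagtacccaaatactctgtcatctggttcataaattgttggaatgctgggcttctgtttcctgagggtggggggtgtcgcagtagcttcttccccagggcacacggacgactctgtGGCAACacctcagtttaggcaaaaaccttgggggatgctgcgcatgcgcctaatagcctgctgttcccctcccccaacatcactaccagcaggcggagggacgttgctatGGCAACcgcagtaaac
Tekt2: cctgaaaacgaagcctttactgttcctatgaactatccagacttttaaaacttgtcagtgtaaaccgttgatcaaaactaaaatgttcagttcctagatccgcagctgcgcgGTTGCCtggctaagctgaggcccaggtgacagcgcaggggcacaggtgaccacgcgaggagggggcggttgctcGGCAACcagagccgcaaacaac
Tekt1: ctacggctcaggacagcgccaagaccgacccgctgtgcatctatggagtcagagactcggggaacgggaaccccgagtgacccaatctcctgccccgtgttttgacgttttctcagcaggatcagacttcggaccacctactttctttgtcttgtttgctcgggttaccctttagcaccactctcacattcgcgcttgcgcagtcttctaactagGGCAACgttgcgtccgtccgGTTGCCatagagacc
Dnah5: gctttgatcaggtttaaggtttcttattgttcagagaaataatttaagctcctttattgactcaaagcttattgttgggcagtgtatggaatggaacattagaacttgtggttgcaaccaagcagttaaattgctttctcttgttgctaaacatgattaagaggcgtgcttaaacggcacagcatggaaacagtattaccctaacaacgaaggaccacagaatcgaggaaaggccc
The Dnaaf2 site began 9 bases before the start of the gene, in a stretch that also holds an exon of the divergent noncoding RNA 9330151L19Rik. In Spag16 a pair of sites began 111 and 103 bases before the start. Those of Tekt1 began 35 and 15 bases before the RefSeq start, and that stretch lies within the GENCODE span of the gene, chr11:72344722-72362442. Sites of Cfap44 began 129 and 19 bases before the RefSeq start, and those of Tekt2 138 and 64.

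No axoneme gene passed the comparison between the groups. Of 39 tested members 0 had an adjusted p under 0.05 in limma with Benjamini-Hochberg adjustment over 20343 genes, where the share of all genes called was 0%. Before adjustment, 1 member had a p under 0.05, Dnaaf2, which was higher, against 5.23% of all genes in either direction, 3% higher and 2.22% lower. The 4 libraries of one group lay wholly above those of the other for 2 members, Dnaaf2 and Dnah12, against 2.99% of all genes, and both were higher after anti-PD-L1, against 1.76% of all genes above and 1.23% below. Both counts were larger without IgG replicate 4, at 4 and 7 members, against 9.15% and 11% of all genes. Without anti-PD-L1 replicate 1 they were 4 and 5, against 6.02% and 6.68%. Adjusted p was 0.632 for Dnaaf2 and 0.999 for every other member (limma, Benjamini-Hochberg).

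Log2 differences, anti-PD-L1 minus IgG on the scale of log2(TPM + 1), had a median of 0.03 over the 39 members and also over all tested genes. Of the members 25 were above 0 and 14 below, where 58.3% of all genes were above 0. That split was 22 and 17 after quantile normalization, 17 and 22 after TMM rescaling, 18 and 21 after removal of a trend on GC content and length, 20 and 19 with array quality weights and 17 and 22 without IgG replicate 1, so its direction depended on the setting. Differences were within 0.1 in either direction for 33 of 39 members (84.6%), against 65.7% of genes whose mean reached 10 TPM, a level that all tested members reached. The sets were not matched further on level. Of the 39 members 17 reached 100 TPM, and the median SE was 0.07 for members and 0.09 for those genes. The part of level in the smaller differences was not tested. The 95% intervals of 37 members lay inside a 1.5-fold change in either direction, and the exceptions were Dnaaf2 and Ccdc39. Summed over the members, levels were 6183 ± 228 TPM after IgG and 6195 ± 161 TPM after anti-PD-L1 (SD, n = 4).

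**Figure D1:**
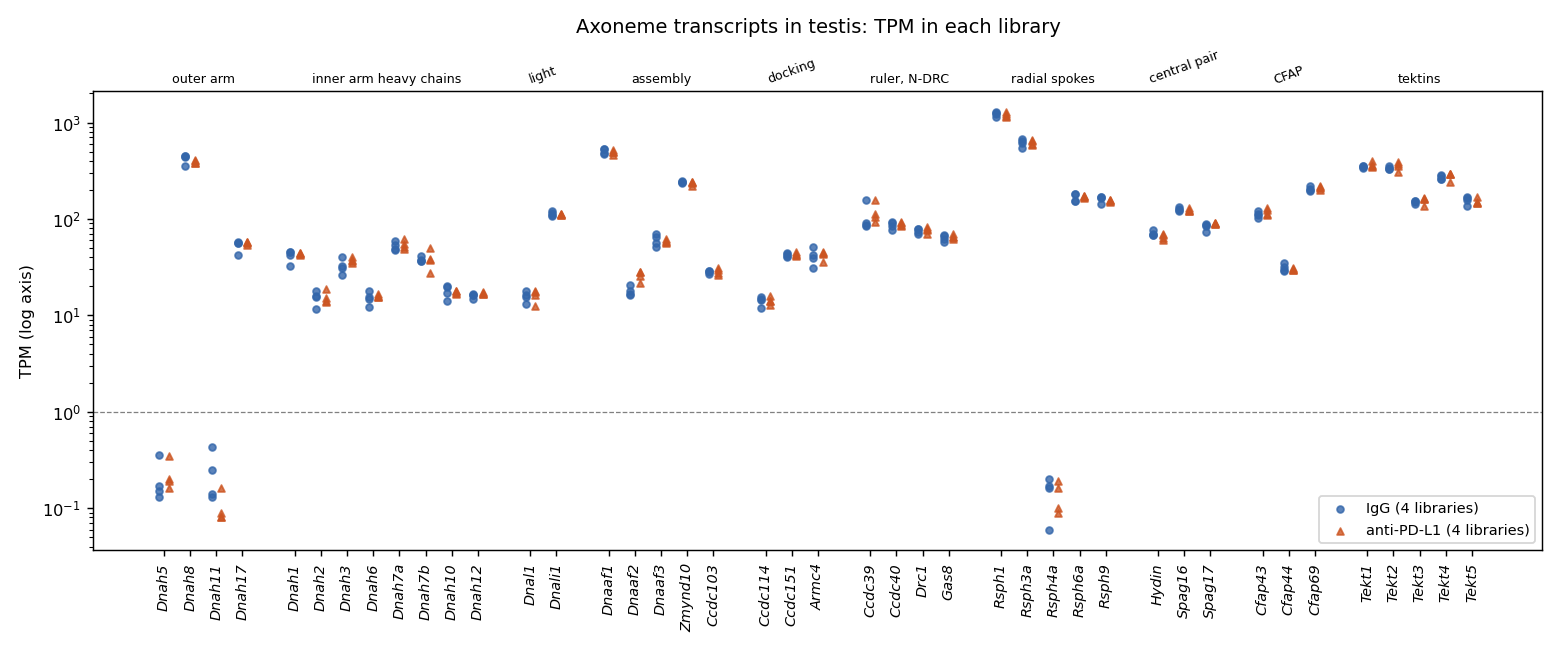
TPM of the 42 members (log axis) in each of 4 IgG libraries (circles) and 4 anti-PD-L1 libraries (triangles), ordered by role, with the dashed line at the limit of 1 TPM for testing. Circles and triangles overlap for nearly all members, and Dnah5, Dnah11 and Rsph4a lie below the line.

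**Figure D2:**
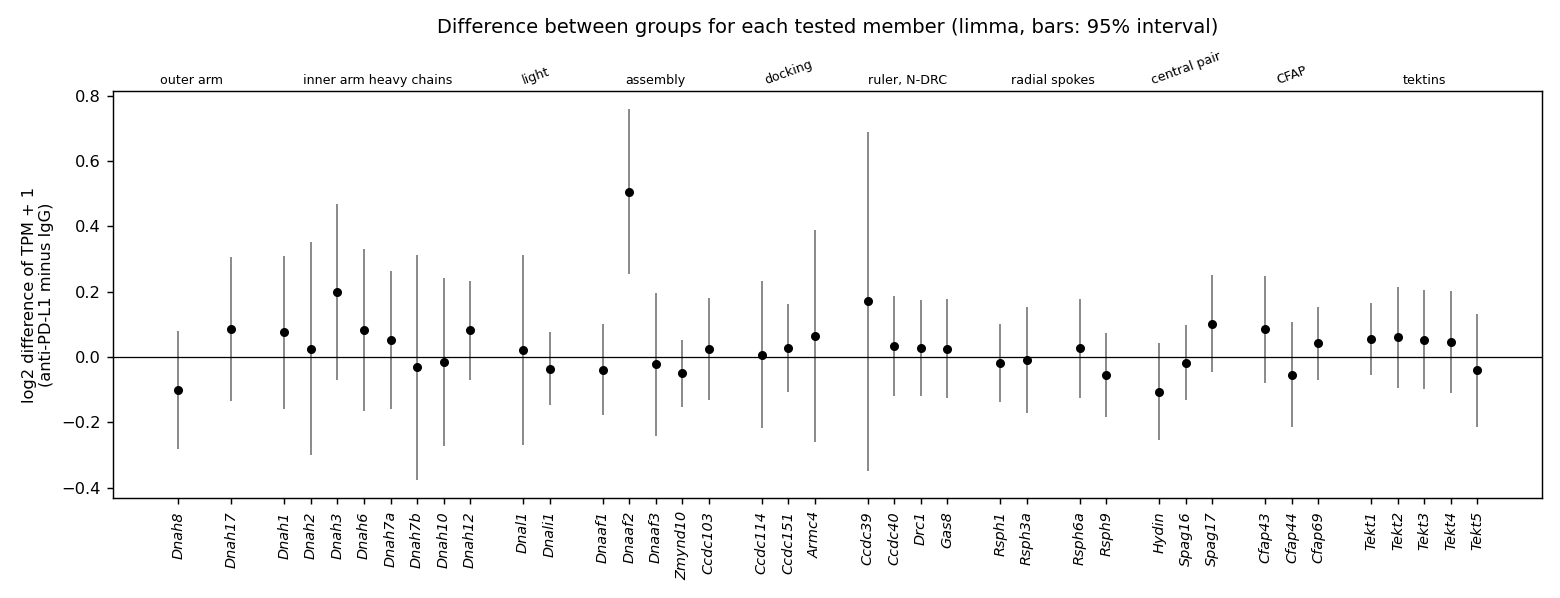
Log2 difference of TPM + 1, anti-PD-L1 minus IgG, for the 39 tested members by role, with points for the limma estimate and bars for its 95% interval. Only the interval of Dnaaf2 leaves out 0, and that of Ccdc39 is the widest.

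Outer arm heavy chains separated into sperm and cilium genes by level. Dnah8, a heavy chain of the sperm outer arm (GRCm38 chr17:30624354-30877365, plus strand), was at 351, 442, 447 and 450 TPM after IgG and 405, 400, 383 and 381 TPM after anti-PD-L1. IgG replicate 1 was below all others and the remaining IgG libraries above all anti-PD-L1 libraries. Dnah8 differed by -0.10 (SE 0.08). IgG replicate 1 alone broke the order, so leaving it out fixed the lack of overlap in advance. The difference was -0.19 without it. The unadjusted p was then under 0.05 and the limma adjusted p 0.819. Among all genes, 4.97% had such an unadjusted p and 5.41% no overlap in that setting. Those genes were not chosen by which library broke their order, so the shares are not a matched comparison. Dnah17, its partner chain in the sperm tail, was at 42.6, 56.5, 56.7 and 57.8 TPM after IgG and 57.4, 56.7, 53.7 and 57.7 TPM after anti-PD-L1. Again only IgG replicate 1 stood below the rest, and the difference of 0.09 (SE 0.10) became -0.02 without it.

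Dnah5 and Dnah11, which take the corresponding places in motile cilia, were close to the floor of the table. Dnah5 ranged from 0.13 to 0.36 TPM after IgG and from 0.16 to 0.35 TPM after anti-PD-L1 (exact permutation p = 0.543, two-sided). Dnah11 ranged from 0.13 to 0.43 TPM and from 0.08 to 0.16 TPM (exact permutation p = 0.0857, two-sided, with 0.0286 the smallest that 4 against 4 allows). Both groups overlapped in either gene. Per length, the mean of Dnah8 was 1905 times that of Dnah5 and the mean of Dnah17 was 323 times that of Dnah11. Over the 8 libraries the log2 ratio ran from 10.18 to 11.73 for the first pair and from 7.04 to 9.49 for the second. Dnah9, a further cilium chain and not a member, was at 3.12 ± 0.38 TPM after IgG and 4.15 ± 0.83 TPM after anti-PD-L1 (SD, n = 4). Its log2 difference was 0.31 (SE 0.15, limma adjusted p = 0.982). Per length, the mean of Dnah17 was only 15.1 times that of Dnah9, with log2 ratios from 3.60 to 4.32 over the libraries.

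The 8 inner arm heavy chains, which shape the bend, had means from 15.3 TPM for Dnah2 to 53.1 TPM for Dnah7a. Their median log2 difference was 0.06 and became -0.02 after removal of the GC and length trend and also without IgG replicate 1. Dnah7a was at 47.1, 53.2, 49.2 and 59.0 TPM after IgG and 61.5, 54.9, 48.8 and 51.3 TPM after anti-PD-L1, with wide overlap. Dnah7b was at 36.7, 41.6, 36.8 and 37.5 TPM after IgG, and its anti-PD-L1 libraries at 49.4, 38.0, 37.3 and 27.4 TPM lay on both sides of them. Near-identical copies make these values uncertain, so Dnah7a, Dnah7b and Dnah7c were also summed. The sum was 123 ± 8.62 TPM after IgG and 125 ± 16.6 TPM after anti-PD-L1 (SD, n = 4, exact permutation p = 0.886, two-sided).

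Dnah3 had the smallest p of the inner arm chains. It was at 26.4, 32.7, 31.0 and 40.6 TPM after IgG and 36.5, 40.6, 37.2 and 34.8 TPM after anti-PD-L1. With all libraries the difference was 0.20 (SE 0.12, limma adjusted p = 0.999). IgG replicate 4 was the only library of its group above any anti-PD-L1 library, so leaving it out fixed the lack of overlap. The difference was 0.31 without it. The unadjusted p was then under 0.05 and the limma adjusted p 0.37. In that setting 9.15% of all genes had such an unadjusted p and 11% no overlap. Dnah3 shares 1506 exon bases with Lyrm1 on the other strand, and no strand setting is given in the sources used here, so reads there cannot be assigned with certainty. Dnah12 was at 14.7, 16.6, 16.3 and 16.3 TPM after IgG and 17.4, 16.7, 16.8 and 16.9 TPM after anti-PD-L1. All 4 anti-PD-L1 libraries were above all 4 IgG libraries, the nearest at 16.73 and 16.63 TPM. Its difference of 0.08 (SE 0.07, limma adjusted p = 0.999) became -0.01 after removal of the GC and length trend.

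Light chains complete the motors. Dnali1, a light chain of the inner arm, was at 108, 122, 114 and 110 TPM after IgG and 109, 112, 112 and 110 TPM after anti-PD-L1, a difference of -0.04 (SE 0.05). Dnal1, a light chain of the outer arm, ranged from 12.6 to 17.9 TPM over all libraries with a difference of 0.02. The table also held Dnaic1 and Dnaic2, other symbols of the listed intermediate chains Dnai1 and Dnai2, which were looked up after the values were seen. Dnaic1 was at 76.6 ± 3.39 TPM and 74.5 ± 4.22 TPM, and Dnaic2 at 45.0 ± 3.75 TPM and 44.7 ± 4.24 TPM, in IgG and anti-PD-L1 libraries (SD, n = 4).

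Assembly factors ranged from 21.9 TPM for Dnaaf2 to 499.8 TPM for Dnaaf1, a leucine-rich repeat protein of arm assembly. Dnaaf1 was at 489, 537, 535 and 466 TPM after IgG and 456, 499.7, 523 and 494 TPM after anti-PD-L1, which overlapped. It differed by -0.04 (SE 0.06), or by 0.003 after quantile normalization. Zmynd10, a zinc finger cochaperone, Dnaaf3 and Ccdc103 differed by -0.05, -0.02 and 0.02. The group's median was -0.02, and 0.06 without both libraries that stood apart.

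Dnaaf2, which helps chaperones fold heavy chains, was the 1 member of the 39 with an unadjusted p under 0.05 (limma), against 5.23% of all genes. It was at 16.1, 16.7, 18.0 and 20.7 TPM after IgG and 25.6, 28.1, 28.3 and 21.4 TPM after anti-PD-L1. The groups did not overlap, although anti-PD-L1 replicate 4 was close to IgG replicate 4. The log2 difference was 0.51 (SE 0.11, 95% interval 0.25 to 0.76), and the limma adjusted p over all genes was 0.632. The unadjusted p stayed under 0.05 in each alternative fit of the Dnaaf2 value itself, every library left out in turn included.

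The Dnaaf2 gene (GRCm38 chr12:69189087-69198429, minus strand) shares exons on its own strand with 2 gene models, so reads of the shared parts cannot be assigned with certainty. Gm49383 shares 757 exon bases with it and was at 7.55, 8.91, 7.06 and 3.73 TPM after IgG. In anti-PD-L1 libraries it was listed at 0 in replicates 1, 2 and 3 and at 4.50 TPM in replicate 4, the library with the lowest Dnaaf2 of its group. Gm49384 shares 700 exon bases and was at 8.06, 8.81, 7.96 and 7.82 TPM after IgG and 1.75, 0.48, 2.72 and 5.43 TPM after anti-PD-L1. It too was highest in replicate 4 of its group. Both models were lower after anti-PD-L1, Gm49384 without overlap, by -1.54 (SE 0.38) and Gm49383 by -2.30 (SE 0.55), each with a limma adjusted p of 0.653.

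Summing the 3 genes turned the direction. The sum was 32.9 ± 1.18 TPM after IgG and 29.6 ± 1.93 TPM after anti-PD-L1 (SD, n = 4), a difference of -0.15 with no overlap (exact permutation p = 0.0286, two-sided). Weighted by gene length, which stands for reads rather than transcripts, the sum in units of the Dnaaf2 length was 22.5 ± 1.34 and 26.9 ± 2.08 TPM, a difference of 0.25 with no overlap the other way (exact permutation p = 0.0286, two-sided). Both p are the smallest possible with 4 against 4, and both sums were chosen after the values were seen. In limma the adjusted p over all genes was 0.946 for the sum and 0.701 for the length-weighted sum. Groups did not overlap for 2.99% of all genes. The lncRNA 9330151L19Rik shares 1107 exon bases on the other strand and was at 2.71 TPM after IgG and 3.62 TPM after anti-PD-L1 on average.

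**Figure D3:**
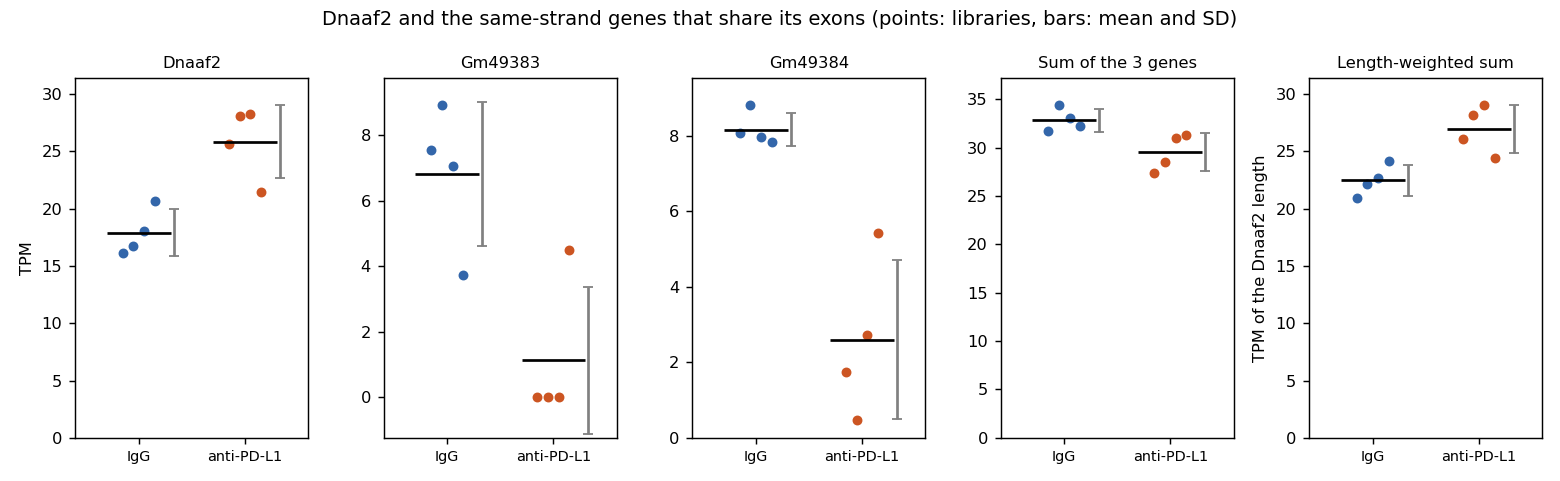
Values in each library (points), with the mean (line) and SD (bar), of Dnaaf2, the same-strand models Gm49383 and Gm49384, their sum in TPM, and their length-weighted sum in TPM of the Dnaaf2 length. Dnaaf2 is higher and both models lower on average after anti-PD-L1, and the 2 sums differ in opposite directions.

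Docking proteins anchor the outer arm. Ccdc151 was at 40.4, 44.8, 43.8 and 40.9 TPM after IgG and 43.7, 41.3, 45.6 and 42.6 TPM after anti-PD-L1, with full overlap. It differed by 0.03 (SE 0.06), and by -0.01 after quantile normalization. Ccdc114 and Armc4 had means of 14.2 and 41.5 TPM and differed by 0.01 and 0.07.

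Among proteins of the axonemal ruler, which sets the spacing of arms and spokes, and of the nexin-dynein regulatory complex, which links neighbouring doublets, Ccdc39 (GRCm38 chr3:33812362-33844310, minus strand) varied most. It was at 84.8, 91.5, 85.6 and 159 TPM after IgG and 158, 91.8, 113 and 104 TPM after anti-PD-L1. The high values were those of IgG replicate 4 and anti-PD-L1 replicate 1, the libraries that stood apart. Ccdc39 differed by 0.17 (SE 0.23). IgG replicate 4 alone of its group was above any anti-PD-L1 library, so leaving it out fixed the lack of overlap. The difference was 0.39 without it, with an unadjusted p under 0.05 and a limma adjusted p of 0.541. In that setting 9.15% of all genes had such an unadjusted p and 11% no overlap. Without anti-PD-L1 replicate 1 Ccdc39 differed by 0.02. It shares 1256 exon bases with Ttc14 on the other strand, which was at 24.1 and 21.2 TPM in those 2 libraries and between 10.8 and 19.1 TPM in the others. Its partner in the ruler, Ccdc40, ranged only from 76.8 to 92.6 TPM, and Drc1 and Gas8 of the regulatory complex differed by 0.03 each.

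Radial spokes held the most abundant member. Rsph1, a spoke head protein (GRCm38 chr17:31255019-31277383, minus strand), was at 1215, 1291, 1242 and 1140 TPM after IgG and 1147, 1169, 1236 and 1276 TPM after anti-PD-L1. The groups covered the same range, with a difference of -0.02 (SE 0.05). Rsph9, also of the head, was at 168, 168, 163 and 144 TPM after IgG and 150.2, 158, 156 and 154 TPM after anti-PD-L1. IgG replicate 4 alone lay below the anti-PD-L1 libraries, and the difference was -0.05 (SE 0.06). Without that library it was -0.105, with an unadjusted p under 0.05 and a limma adjusted p of 0.509. The groups did not overlap then, which the choice of library fixed in advance. In that setting 9.15% of all genes had such an unadjusted p and 11% no overlap. Rsph3a, of the stalk, was at 624 ± 56.8 TPM and 618 ± 35.4 TPM (SD, n = 4), but its near-identical copy Rsph3b, at 229 ± 13.5 TPM and 221 ± 7.77 TPM, makes the division between them uncertain.

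The spoke head also has a sperm and a cilium gene. Rsph6a, the sperm gene, was at 155, 180, 180 and 152 TPM after IgG and 163, 167, 174 and 173 TPM after anti-PD-L1, a difference of 0.03 (SE 0.07) that became -0.002 after TMM rescaling. Its anti-PD-L1 libraries all lay within the range of the IgG libraries. Rsph4a, the cilium gene, ranged from 0.06 to 0.2 TPM after IgG and from 0.09 to 0.19 TPM after anti-PD-L1, which overlapped. Per length the mean of Rsph6a was 1189 times that of Rsph4a, with log2 ratios from 9.57 to 11.55 over the libraries.

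Central pair proteins sit at the core of the axoneme. Hydin, a very large protein of a central pair projection, was at 67.3, 67.9, 76.8 and 70.04 TPM after IgG and 68.2, 64.1, 69.3 and 60.4 TPM after anti-PD-L1. The groups overlapped, and Hydin differed by -0.11 (SE 0.07). Spag16 was at 132, 125, 125 and 119 TPM after IgG and 120, 121, 125 and 131 TPM after anti-PD-L1, a difference of -0.02 (SE 0.05). Spag17 differed by 0.10 (SE 0.07), so the 3 genes did not share a direction.

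Cfap43, a protein that tethers an inner arm, was at 101, 110.2, 114 and 120.0 TPM after IgG and 129, 109, 122 and 112 TPM after anti-PD-L1, with a difference of 0.08 (SE 0.07). Cfap69, needed for the sperm tail, was at 205, 197, 199 and 218 TPM after IgG and 211, 213, 219 and 199 TPM after anti-PD-L1, with a difference of 0.04 (SE 0.05), or -0.02 after removal of the GC and length trend. Neither separated the groups, and Cfap44, the partner of Cfap43, differed by -0.05.

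Tektins, filament proteins inside the doublets, had short transcripts, with means from 153 TPM for Tekt3 to 358 TPM for Tekt1. Tekt1 was at 356, 358, 347 and 341 TPM after IgG and 344, 364, 394 and 357 TPM after anti-PD-L1. Replicate 3 of the anti-PD-L1 group was the highest, the groups overlapped, and the difference was 0.06 (SE 0.05). Tekt1, Tekt2, Tekt3 and Tekt4 differed by 0.05 to 0.06 and Tekt5 by -0.04. The median of 0.05 kept its sign under quantile normalization, TMM rescaling and removal of the GC and length trend. Anti-PD-L1 replicate 1 was the lowest library for Tekt2, Tekt3 and Tekt4. Without that library, these genes had an unadjusted p under 0.05 and groups that did not overlap. It was their only anti-PD-L1 library below any IgG library, so leaving it out fixed the lack of overlap. In that setting 6.02% of all genes had such an unadjusted p and 6.68% no overlap. The smallest limma adjusted p of any member was then 0.66.

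Within groups, the long heavy chains and the short tektins deviated in different libraries. IgG replicate 1 was the lowest library for 9 of 10 tested heavy chains, at a mean deviation of -0.26 on the log2 scale from the mean of each gene. Adipocyte markers summed to 93.5 TPM in that library and to between 6.83 and 31.99 TPM in the other libraries, and their part in the low values was not tested. IgG replicate 4 was the highest for 5 and anti-PD-L1 replicate 1 for 4, at 0.13 each. Over all 20343 tested genes, these libraries were the highest for 4575 and 4254, at mean deviations of 0.13 and 0.11. For 4640 of all tested genes IgG replicate 1 was the lowest, at a mean deviation of -0.06. For the 5 tektins, anti-PD-L1 replicate 1 had the lowest mean deviation, -0.12, and anti-PD-L1 replicates 2 and 3 had 0.10 and 0.08. The spread between libraries of 1 group was thus larger than the difference between groups for either set.

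**Figure D4:**
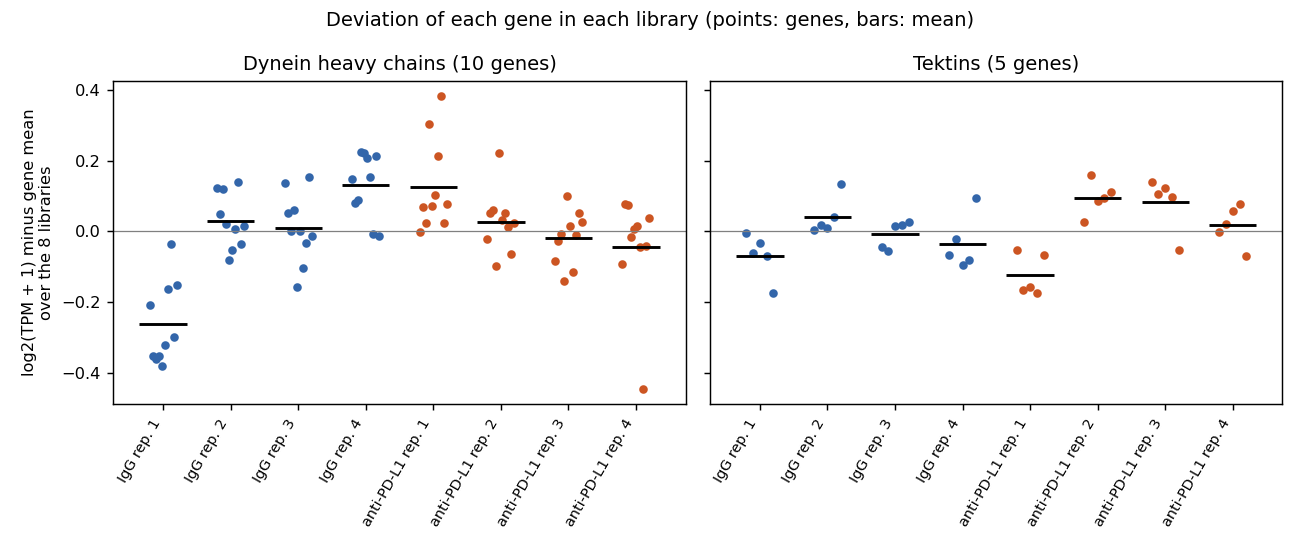
Deviation of log2(TPM + 1) from the mean of each gene over the 8 libraries, for 10 dynein heavy chains (left) and 5 tektins (right), with a point for each gene and a line for the mean in each library. Heavy chains are low in IgG replicate 1, at -0.26, and tektins are low in anti-PD-L1 replicate 1, at -0.12.

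Gene length followed the same order. Over the 39 members the deviation had a Spearman correlation with deposited gene length of 0.62 in IgG replicate 4, 0.62 in anti-PD-L1 replicate 1 and -0.54 in IgG replicate 1. Over all tested genes these were 0.16, 0.13 and -0.25. These are correlations across genes of 1 library, which share its depth and base composition and are not replicates. The difference between groups correlated with length at 0.16 over members and 0.14 over all genes. IgG replicate 4 and anti-PD-L1 replicate 1 were the lowest pair of libraries for 9 of 39 members (23.1%), against 3.21% of all tested genes, and the highest pair for 5 (12.8%), against 21%. The 9 were Tekt1, Tekt3, Tekt4, Rsph1, Rsph3a, Rsph9, Dnaaf1, Spag16 and Drc1, with lengths from 966 to 2821 bases. The 5 were Dnah2, Dnah6 and Dnah7a, at 12245 to 13704 bases, Ccdc39 at 3606 bases, and Ccdc114, which at 2598 bases lay within the range of the 9. The part of length in this pattern was not tested.

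**Figure D5:**
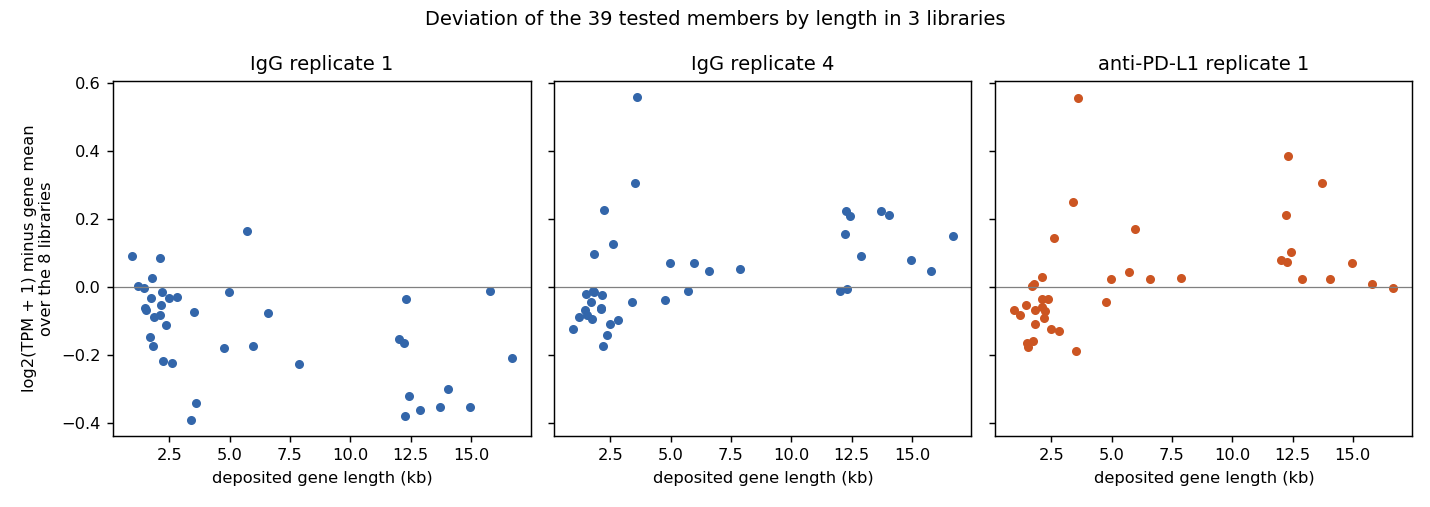
Deviation of log2(TPM + 1) from the mean of each gene against deposited gene length in kb, for the 39 tested members in IgG replicate 1, IgG replicate 4 and anti-PD-L1 replicate 1. Long members are low in the first library and high in the others, with Spearman correlations of -0.54, 0.62 and 0.62.

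Other axoneme genes and their regulators also gave 0 genes past the adjusted threshold. Of 89 listed genes that are not members, 86 were tested, and 9 of the 86 are transcription regulators of axoneme genes. Differences were above 0 for 63 (7 of the regulators) and below for 23, where 58.3% of all genes were above 0. The split was 48 and 38 after TMM rescaling, 55 and 31 after quantile normalization and 57 and 29 after removal of the GC and length trend. In limma 0 of 86 passed over all genes and 3 had an unadjusted p under 0.05, where the share of all genes was 5.23%. Efcab1, a calcium-binding protein of the docking complex, was at 17.4, 18.6, 17.1 and 17.2 TPM after IgG and 15.5, 14.1, 15.3 and 13.6 TPM after anti-PD-L1. It was the 1 gene of the 86 whose groups did not overlap, against 2.99% of all genes, and it differed by -0.25 (SE 0.07, limma adjusted p = 0.657). Fam166a, a microtubule inner protein, differed by -0.15 (SE 0.06) and Mybl1 by 0.17 (SE 0.07). Among the 9 regulators, Rfx2, which drives tail genes in spermatids, was at 179 ± 19.3 TPM and 180 ± 11.3 TPM (SD, n = 4), and Foxj1, which drives genes of motile cilia, at 33.7 ± 1.80 TPM and 37.2 ± 3.84 TPM. Their differences were 0.02 (SE 0.08) and 0.14 (SE 0.08), both with a limma adjusted p of 0.999.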

How the data were processed

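Bulk testis RNA-seq of 4 IgG and 4 anti-PD-L1 libraries was used, with groups and replicate numbers taken from sample titles. The deposited table gives TPM per gene, per the file headers; CASAVA 1.8, HISAT2, StringTie, RSEM and mm10 are named in the submitters' processing notes, and the sources used here give no roles of these tools, annotation or strand setting. TPM keeps no depth, so no counting intervals are given and their precision is unknown. Values were taken as log2(TPM + 1), which understates changes of low genes. Genes whose mean reached 1 TPM (20343) were fitted with limma 3.58.1 in R 4.3.3 with an intensity trend and no covariate, with Benjamini-Hochberg adjustment over all of them at 0.05. Single sums used two-sided exact permutation over 70 assignments. The fit was tested on simulated data. Python 3.11.15 was used for descriptions. Coordinates and shared exons came from GENCODE M21 (GRCm38) and promoters from RefSeq (GRCm38.p6).

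Values in every library are given for the member of each role group with the highest mean, the one with the smallest p, and members whose groups did not overlap. Fixed pairs of sperm and cilium genes, and the copies Dnah7a and Dnah7b, are given likewise. The exceptions are the cilium genes Dnah5, Dnah11 and Rsph4a, below 1 TPM, which are given as group ranges. The members and lists were chosen with earlier results of these data known. Alternatives were a pseudocount of 0.1, no filter or 5 TPM, quantile normalization, TMM rescaling, array quality weights, no trend, a replicate block, subtraction of a smooth trend on GC content and length (18439 genes, splines with 5 degrees of freedom), and libraries left out; sums over the Dnaaf2 locus were added after seeing the data. Libraries were distinct, with at most 2.48% of detected genes at equal values in any pair.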

Additional observations from a re-analysis of the deposited data

Results flagged for a closer look

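In each group of 4 libraries, the highest and lowest values of each member were checked for a wide gap to the nearest other library. Of 84 groups 7 held such a library, where chance marks about 1 in 20 groups. IgG replicate 1 was far below the others of its group for both outer arm heavy chains of sperm: Dnah8 was at 351.05 TPM there and between 442.26 and 450.06 TPM in the others, and Dnah17 at 42.59 TPM against 56.53 to 57.82 TPM. IgG replicate 4 was far above its group for the ruler gene Ccdc39, at 158.86 TPM against 84.83 to 91.48 TPM. Dnah7b, an inner arm chain with near-identical copies, was at 41.6 TPM in IgG replicate 2 against 36.68 to 37.45 TPM.

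After anti-PD-L1, Tekt4 was at 242.59 TPM in replicate 1 and between 289.47 and 293.2 TPM in the others. Tekt5 was at 167.32 TPM in replicate 2 against 147.24 to 149.01 TPM. Dnah11, near the floor of the table, was at 0.16 TPM in replicate 1 against 0.08 to 0.09 TPM.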

How the results depend on the processing

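The count of members past the adjusted threshold was 0 in every alternative that was run, with the smallest adjusted p of a member between 0.161 and 1.0 (limma, Benjamini-Hochberg). Replicate numbers are shared between the groups, but same-numbered libraries did not deviate together (correlations of -0.115, 0.1, 0.0896 and -0.198), and with the replicate block 0 members passed the adjusted threshold and 1 the unadjusted one. The unadjusted count of 1 was 2 with array quality weights, where 10.6% of all genes were at an unadjusted p under 0.05, 4 without both libraries that stood apart (9.88% of all genes), and from 1 to 4 with each library left out. The count of 2 members with no overlap was 1 after quantile normalization, TMM rescaling or removal of the GC and length trend, 11 without both libraries that stood apart (16.1% of all genes), and from 2 to 7 with each library left out. Medians that moved by more than the spread between replicates were 0.0639 for assembly factors without both libraries, and -0.0609 for central pair and -0.0236 for other CFAP genes after removal of the GC and length trend.

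Of 39 tested members, 24 changed sign in at least 1 alternative, none of them above 0.0855 in size with all libraries, and their values under the alternatives ran from -0.173 to 0.252. Among the members named for their values, the summed TPM of the Dnaaf2 locus was -0.149, against 0.51 for Dnaaf2 itself. After quantile normalization Ccdc151 was -0.00922 and Dnaaf1 0.0028. After TMM rescaling Ccdc151 was -0.00055 and Rsph6a -0.00165, and with array quality weights they were -0.0197 and -0.0283. After subtraction of the GC and length trend Cfap69 was -0.0236, Dnah12 -0.0105, Dnah7a -0.0266 and Rsph6a -0.0175. With each library left out, Dnah17 ran from -0.0176 to 0.126, Dnah7a from -0.00963 to 0.113, Dnah7b from -0.165 to 0.112, Rsph1 from -0.0508 to 0.00902, Rsph6a from -0.0163 to 0.0649 and Spag16 from -0.0429 to 0.0091. The cause of these shifts was not tested. Depth is unknown.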
